A study of Homo sapiens with 6 samples.

Results

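Most of the genes described here encode core protein subunits of the spliceosome. They were chosen by symbol: the SF3A, SF3B, SNRP, SNRNP, PRPF and LSM genes with U2AF1 and U2AF2. LSM1, LSM10, LSM11, LSM12, LSM14A and LSM14B match by symbol but are not spliceosome subunits. The rule found 55 of the 26334 gene symbols and 83 of the 51398 RefSeq isoforms quantified. Of the 55 genes, 20 have more than 1 isoform in the files and 35 have 1. The cells were PC-9, a human lung adenocarcinoma line with an activating deletion in EGFR, grown in serum-containing RPMI without drug. Total RNA was sequenced from cells carrying a control hairpin (shScr) or either of a pair of hairpins against the splicing factor RBM10 (shRBM10#1 and shRBM10#2). Each condition had 2 libraries. The labels, like the study's results, name shScr as the control, whereas its methods name parental PC-9 cells. Nothing states whether the libraries of a condition came from separate cultures, so the tests measure the spread between these libraries, which may be technical.

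The spliceosome removes introns from pre-mRNA and is assembled anew on each intron from small nuclear RNAs and proteins. U1 snRNP binds the 5′ splice site, U2AF recognizes the 3′ splice site, and U2 snRNP, with its SF3A and SF3B complexes, engages the branch point. The U4/U6.U5 tri-snRNP then joins and is rearranged into the catalytic machine. Rings of Sm proteins encircle the U1, U2, U4 and U5 RNAs, and a ring of LSM proteins binds the end of U6. RBM10 is an RNA-binding protein that associates with the spliceosome and influences exon inclusion, which raises the question whether the core machinery itself changed when RBM10 was depleted.

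Libraries held 31953729 to 37557507 expected counts, of which the 55 genes took 0.729% to 0.757%. In CPM (read counts scaled to a common library size, here with TMM factors), RBM10 stood at 83.2 and 86.2 in shScr, at 59.8 and 56.4 under shRBM10#1, and at 27.2 and 26.9 under shRBM10#2. The depletion was deeper with shRBM10#2, which left 31.9% of the shScr level by the fitted fold change, than with shRBM10#1, which left 68.6% (edgeR, FDR = 5.10e-08 and 2.28e-04). All 6 epithelial markers checked were expressed, from 52.4 TPM (EGFR) upward, while PTPRC, CD3E, VWF, COL1A2 and PDGFRB of blood, vessel and stromal cells stayed at or below 0.24 TPM in every library. PECAM1 had 1.16 to 1.64 TPM and CD68, a lysosomal protein used as a macrophage marker, 76.8 to 116 TPM. The mean fragment implied by the effective lengths was 231 nt in shScr replicate 2 and 265 to 281 nt in the other libraries, and TPM is computed from those lengths. All 55 genes passed the filter on low counts.

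The members were expressed over a wide range. TPM, which is divided by transcript length, averaged 77 for the median member over all libraries. The Sm ring and the U2 proteins carried most of the total: the 7 Sm genes summed to 2361 ± 129 TPM and the 13 U2 and U2AF genes to 2038 ± 87.8 TPM in shScr (mean ± SD, n = 2). SNRPB, which encodes the Sm proteins B and B′, had the highest level of the 55, between 732.58 and 819.83 TPM in the 6 libraries. SNRPD2, another Sm protein, followed with 575 to 615 TPM, and SNRPG with 377 to 464 TPM. U2AF2, the large subunit of U2AF that contacts the polypyrimidine tract, came next by mean with 280 to 456 TPM, and its range overlapped that of SNRPG. At the other end LSM11, a subunit of the U7 snRNP of histone mRNA processing, had 2.4 to 3.12 TPM, and LSM8, which defines the nuclear U6 ring, had 2.39 to 3.36 TPM. The LSM8 isoform is 12520 nt long in the files. In CPM, which is not divided by length, LSM8 had 20.5 to 28.1, above LSM1 of the decay ring with 13.1 to 16.7. The 3 genes of the minor spliceosome summed to 119 ± 1.59 TPM in shScr.

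**Figure D1:**
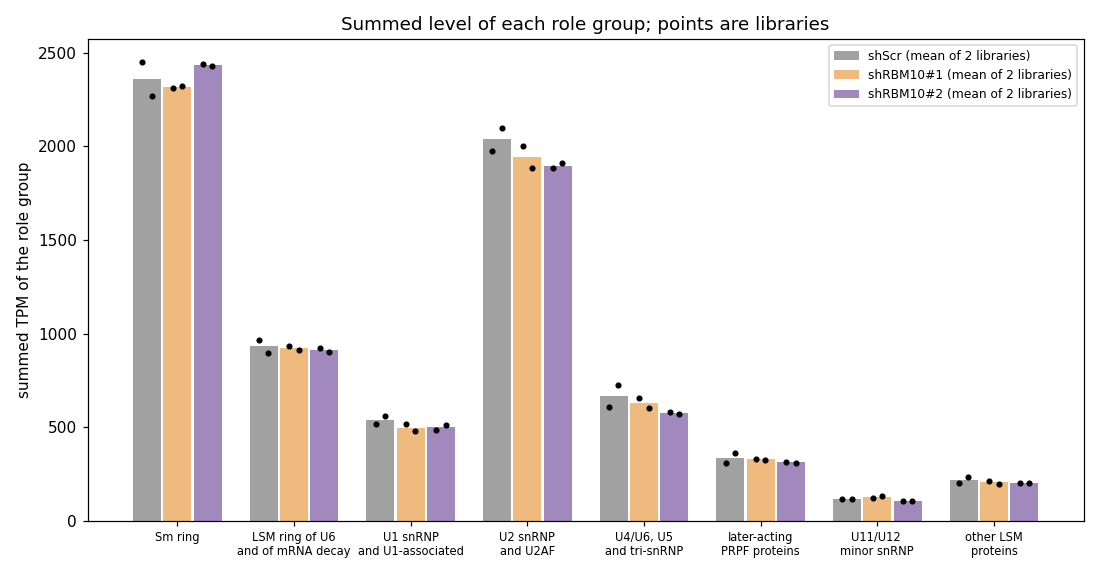
Summed TPM (vertical axis) of the genes in each of 8 role groups, with bars at the mean of 2 libraries per condition and points for the libraries. The Sm ring and the U2 group stand highest in every library, and the tri-snRNP group averages 669 TPM in shScr, 628 with shRBM10#1 and 576 with shRBM10#2.

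The 3 genes of the minor spliceosome gave 118 and 119.91 TPM in shScr, 121 and 131 with shRBM10#1, and 108.0 and 105 with shRBM10#2. The conditions did not overlap in this sum, most of which is SNRNP25. Mean TPM in shScr, shRBM10#1 and shRBM10#2 was 79.2, 81.5 and 66.0 for SNRNP25. It was 22.0, 28.45 and 24.5 for SNRNP35, and 17.6, 16.5 and 16.2 for SNRNP48, so the genes did not move alike. The U2 and U2AF genes gave 1976 and 2100.3 TPM in shScr, 2003 and 1886 with shRBM10#1, and 1884 and 1912 with shRBM10#2, so that shRBM10#2 lay below shScr. The tri-snRNP group gave 609 and 729 TPM in shScr, 655 and 601 with shRBM10#1, and 580.2 and 573 with shRBM10#2. Both shRBM10#2 sums were below both shScr sums, and the shScr libraries differed from each other by more than the means of the shRNAs did. The Sm ring gave 2452 and 2270 TPM in shScr, 2313 and 2323 with shRBM10#1, and 2439 and 2431 with shRBM10#2, so that shScr spanned the other values.

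Where members have several isoforms, a small coding segment often tells them apart. Such segments are shown for 5 members whose isoform shares are given in the next paragraphs. They were read from GENCODE 29 transcripts (GRCh38) matched through RefSeq identifiers, with 12 nt of flank on each side. Capitals mark the nucleotides that are present in the named isoform and missing from its partner, and all are coding.
U2AF2 NM_007279, absent from NM_001012478: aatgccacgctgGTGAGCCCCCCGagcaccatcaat
SNRNP70 NM_003089, absent from NM_001301069: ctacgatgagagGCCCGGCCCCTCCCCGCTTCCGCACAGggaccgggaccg
PRPF4 NM_004697, absent from NM_001244926: gcctcttccacgCAGgcaaccaaaact
LSM14A NM_001114093, absent from NM_015578: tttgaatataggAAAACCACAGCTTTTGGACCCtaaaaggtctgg
U2AF1 NM_006758, exon 3: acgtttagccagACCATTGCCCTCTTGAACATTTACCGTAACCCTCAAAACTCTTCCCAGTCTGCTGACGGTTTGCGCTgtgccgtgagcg
U2AF1 NM_001025203, exon 3: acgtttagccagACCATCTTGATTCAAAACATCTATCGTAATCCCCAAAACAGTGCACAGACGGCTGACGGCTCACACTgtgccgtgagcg

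The U2AF2 segment of 12 nt lies in exon 10 on the plus strand at chr19:55669170-55669181. The isoform that carries it gave 16.1% and 16.2% of U2AF2 expression in shScr, 15.2% and 16.1% with shRBM10#1, and 17.3% and 16.1% with shRBM10#2. The shares overlapped between conditions, and the form without the segment was the main one throughout. SNRNP70 encodes the U1-70K protein of U1 snRNP, and its 27-nt segment is in exon 10 at chr19:49107795-49107821 (plus strand). The isoform without it took 26.3% and 25.4% in shScr, 23.9% and 23.8% with shRBM10#1, and 23.1% and 22.0% with shRBM10#2. These values did not overlap between any pair of conditions. In PRPF4, a protein of the U4/U6 snRNP, 1 codon of 3 nt at chr9:113276545-113276547 (plus strand, exon 2) separates the isoforms, and the form that has it held 17.6% to 23.6% over the 6 libraries.

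U2AF1, the small subunit of U2AF that contacts the AG at the 3′ splice site, uses either of a pair of exons of 67 nt each on the minus strand. They lie at chr21:43100453-43100519 (NM_006758) and chr21:43101366-43101432 (NM_001025203), and 44 of their 67 positions are identical (65.7%). NM_001025203 accounted for 23.2% and 27.3% of U2AF1 expression in shScr, 24.7% and 26.4% with shRBM10#1, and 26.03% and 29.7% with shRBM10#2. The choice between these exons overlapped among all conditions. In LSM14A, a protein of mRNA storage and decay granules, the coding segment is 21 nt in exon 10 at chr19:34226408-34226428 (plus strand). It is not the whole difference, since the isoforms are 3772 and 3715 nt long in the files. NM_001114093, which has the segment, held 37.4% and 41.0% in shScr, 40.6% and 36.6% with shRBM10#1, and 32.0% and 36.3% with shRBM10#2, so that shRBM10#2 lay below every other library.

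Gene totals of the members moved by small amounts. In shRBM10#1 against shScr, 2 of 55 members were called at an FDR below 0.05 (3.64%), both higher, while 14% of the 14217 genes tested were called, 7.13% of them higher and 6.91% lower. In shRBM10#2 against shScr, 16 members were called (29.1%), 9 higher and 7 lower, beside 25.9% of all genes (12% higher and 13.9% lower). The members' share with shRBM10#2 was thus near that of all genes. No member was called in both comparisons, which share the shScr libraries. With 2 calls for shRBM10#1, few shared calls could occur, so this is not read as a trait of the members. None passed an absolute log2 FC above 1 (edgeR, 0 of 55 for each shRNA), a size that 1.88% of all genes reached as calls with shRBM10#1 and 1.3% with shRBM10#2. An unadjusted p below 0.05 was found for 11 members with shRBM10#1 (20%, beside 28.5% of all genes) and for 23 with shRBM10#2 (41.8%, beside 37.9%).

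The median log2 FC of the members was 0.03 with shRBM10#1 and 0.01 with shRBM10#2, beside 0.01 for all genes in each. The median size of the log2 FC, without its sign, was 0.06 for members and 0.15 for all genes with shRBM10#1, and 0.13 and 0.19 with shRBM10#2. The member that moved farthest reached 0.43 with shRBM10#1 (SNRNP35) and 0.52 in size with shRBM10#2 (U2AF2).

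**Figure D2:**
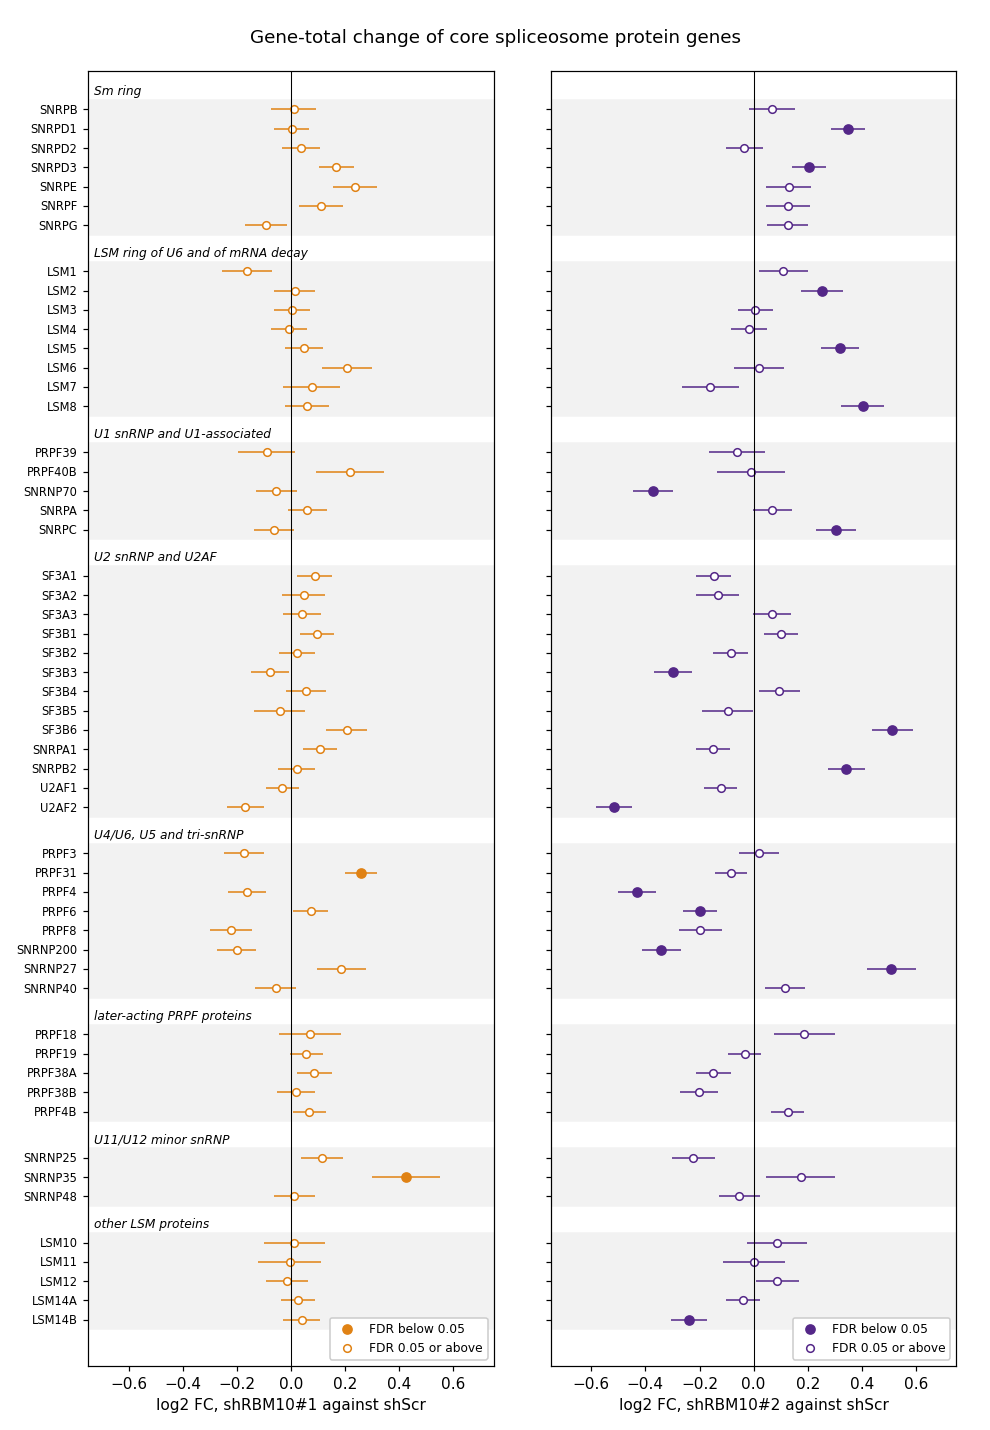
Log2 FC (horizontal axis) with its standard error of 54 of the genes in shRBM10#1 (left) and shRBM10#2 (right) against shScr, grouped by role, with filled points for an FDR below 0.05. With shRBM10#1 only PRPF31 and SNRNP35 are filled; with shRBM10#2 there are 16 filled points on both sides of 0, all within 0.52 of it.

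Among proteins that recognize the 3′ splice site and branch point, U2AF2 fell and U2AF1 was not called. U2AF2 gave 779 and 797 CPM in shScr, 738 and 664 under shRBM10#1, and 544 and 558 under shRBM10#2. Every shRBM10#2 library lay below every shRBM10#1 library, and these below shScr. With shRBM10#2 the log2 FC was −0.52 (SE 0.0679, FDR = 4.26e-04), or 69.9% of shScr. This FDR and those of the other gene totals come from edgeR's quasi-likelihood test, adjusted by Benjamini-Hochberg over all genes tested. With shRBM10#1 it was −0.17 (SE 0.0677, FDR = 0.122), which did not pass, and it passed in 3 of 16 alternative settings. U2AF1 gave 101 and 98.6 CPM in shScr, 97.2 and 97.8 with shRBM10#1, and 92.4 and 90.9 with shRBM10#2, and neither shRNA gave a call (log2 FC −0.03, SE 0.0612, FDR = 0.776 for shRBM10#1, and −0.12, SE 0.0612, FDR = 0.165 for shRBM10#2).

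SF3B1, the branch-point scaffold of the SF3B complex, gave 325 and 313 CPM in shScr, 350.4 and 331 with shRBM10#1, and 340.0 and 345 with shRBM10#2. All 4 libraries of the shRNAs were above both of shScr in CPM. In TPM the conditions overlapped, at 116 and 128 in shScr, 128 and 116 with shRBM10#1, and 126 and 127 with shRBM10#2. Neither difference was called (log2 FC 0.10, SE 0.0628, FDR = 0.351 with shRBM10#1, and 0.10, SE 0.0627, FDR = 0.256 with shRBM10#2). SF3B6, the small subunit that binds SF3B1 near the branch-point adenosine, rose with shRBM10#2 from 81.6 and 72.1 CPM in shScr to 107 and 112 CPM. Its shRBM10#1 libraries, at 84.8 and 92.5 CPM, lay between without overlap (FDR = 0.0941), and the log2 FC with shRBM10#2 was 0.51 (SE 0.0757, FDR = 7.54e-04). SF3B3, another SF3B subunit and a close relative of a DNA damage-binding protein, went the other way, from 309.7 and 315 CPM in shScr to 257 and 251 with shRBM10#2. Its log2 FC was −0.30 (SE 0.0697, FDR = 0.00852), and its shRBM10#1 libraries (314 and 278 CPM) overlapped shScr. The remaining subunits SF3A1, SF3A2, SF3A3, SF3B2, SF3B4 and SF3B5 were called with neither shRNA. Of the U2-specific proteins, SNRPB2 (U2-B″) rose from 54.1 and 51.0 CPM in shScr to 65.0 and 68.3 with shRBM10#2 (log2 FC 0.34, SE 0.0686, FDR = 0.00384). SNRPB2 had 54.1 and 52.6 CPM with shRBM10#1, inside the shScr range, and SNRPA1 (U2-A′) was not called with either.

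In the U4/U6.U5 tri-snRNP, 3 of 8 members fell and 1 rose with shRBM10#2, beside 13.9% of all genes called lower and 12% higher. PRPF4 fell from 87.4 and 94.5 CPM in shScr to 68.6 and 66.4 CPM (log2 FC −0.43, SE 0.0699, FDR = 0.00120), with shRBM10#1 between them at 84.4 and 78.2 CPM (FDR = 0.145). SNRNP200, the Brr2 helicase that unwinds U4 from U6, gave 468 and 489.6 CPM in shScr, 442 and 391 with shRBM10#1, and 386 and 369.5 with shRBM10#2. The conditions did not overlap in CPM, while in TPM the hairpins overlapped (92.3 and 79.0 with shRBM10#1, 81.5 and 77.8 with shRBM10#2). The log2 FC of SNRNP200 was −0.34 with shRBM10#2 (SE 0.0715, FDR = 0.00492) with an FDR of 0.0820 for shRBM10#1. PRPF6, which bridges U5 and U4/U6, fell from 295.5 and 319 to 269.5 and 266 CPM (log2 FC −0.20, SE 0.0636, FDR = 0.0375). The shRBM10#1 libraries of PRPF6, at 324.5 and 321.5 CPM, were above shScr. In TPM they had 167 and 159, inside the shScr range of 149 to 184. SNRNP27, a small tri-snRNP protein, rose from 16.8 and 17.0 CPM in shScr to 22.5 and 25.5 with shRBM10#2 (log2 FC 0.51, SE 0.0890, FDR = 0.00184), with 19.4 and 19.0 CPM in shRBM10#1 (FDR = 0.201). PRPF8, the U5 scaffold next to the catalytic site, had 446 and 496.5 CPM in shScr and lower values with each shRNA (429 and 379.6, then 427 and 396), without a call (FDR = 0.0823 and 0.0843).

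PRPF31, the U4/U6 protein also known as a gene of inherited retinal degeneration, was 1 of the pair called with shRBM10#1. It gave 195 and 194 CPM in shScr, 234 and 231 with shRBM10#1, and 181 and 186 with shRBM10#2. The shRBM10#1 libraries stood above all others, with a log2 FC of 0.26 (SE 0.0601, FDR = 0.0127), whereas shRBM10#2 lay below shScr without a call (FDR = 0.338). SNRNP35, a protein of the U11/U12 snRNP of the minor spliceosome, was the other: 11.5 and 9.69 CPM in shScr, 12.8 and 15.6 with shRBM10#1, and 11.2 and 12.7 with shRBM10#2. Its log2 FC with shRBM10#1 was 0.43 (SE 0.127, FDR = 0.0418), and shRBM10#2 overlapped shScr. By GENCODE 29, 32.0% of the exonic length of PRPF31 is overlapped by opposite-strand genes (TFPT among them) and 40.1% of that of SNRNP35 by RILPL1. Whether counting used the strand is not given in the sources used here, so reads from these stretches cannot be told apart. Neither partner was called with shRBM10#1 (TFPT log2 FC −0.03, FDR = 0.870; RILPL1 log2 FC 0.26, FDR = 0.105). Their part in the result was not tested.

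Of the 6 U1 and U1-associated genes, 1 fell and 1 rose with shRBM10#2, beside 13.9% of all genes called lower and 12% higher. SNRNP70 gave 289.8 and 294 CPM in shScr, 301 and 262 with shRBM10#1, and 217 and 234 with shRBM10#2. Both shRBM10#2 libraries were below every other library, with a log2 FC of −0.37 (SE 0.0748, FDR = 0.00396), or 77.3% of shScr, and shRBM10#1 straddled the control (FDR = 0.687). SNRPC (U1-C), which stabilizes pairing of U1 with the 5′ splice site, rose from 88.0 and 80.0 CPM to 102 and 106 with shRBM10#2 (log2 FC 0.30, SE 0.0733, FDR = 0.0100), and had 76.4 and 84.3 CPM with shRBM10#1. GENCODE 29 lists 18 pseudogenes named after SNRPC, so reads could be shared with near-identical copies. SNRPA (U1-A) and the U1-associated PRPF39 and PRPF40B were not called with either shRNA.

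**Figure D3:**
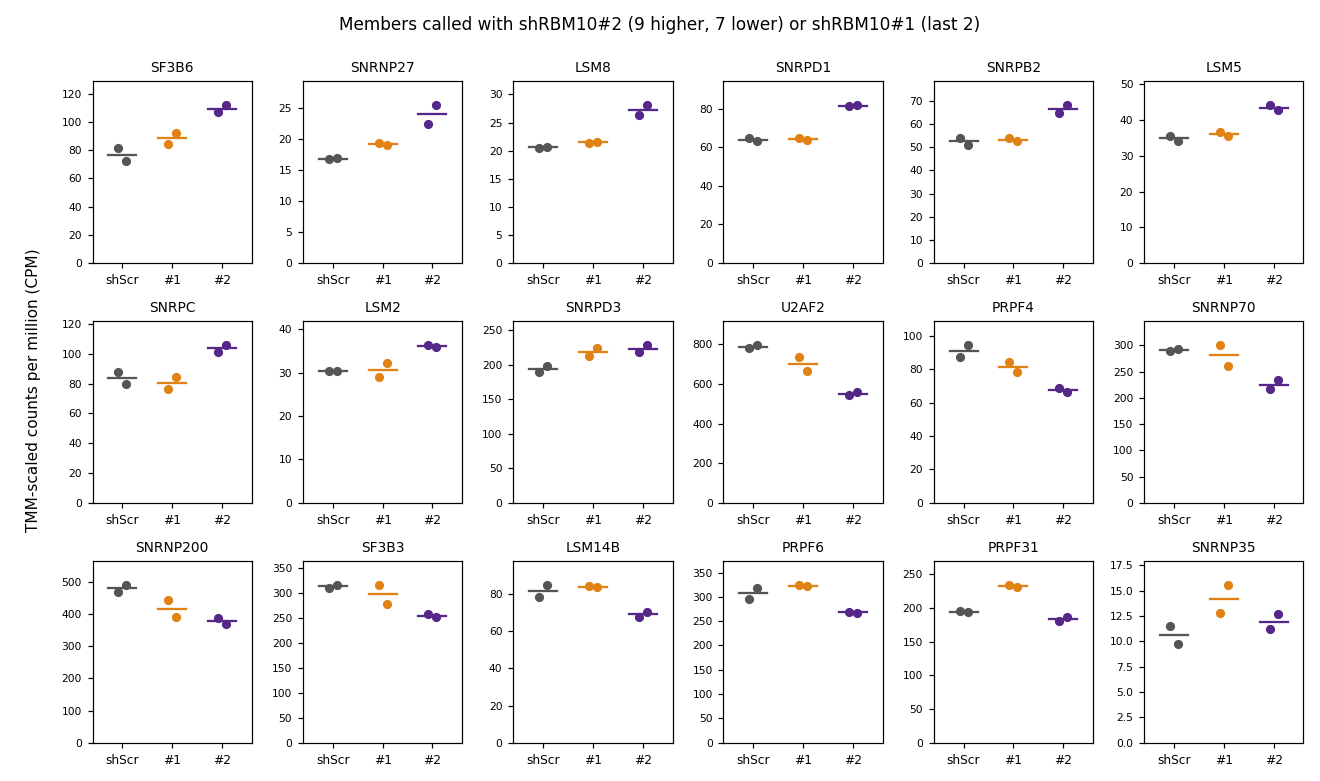
TMM-scaled CPM (vertical axis from 0) in each library (points) with the condition mean (line) for the 18 members called with either shRNA. The first 9 panels are higher and the next 7 lower with shRBM10#2, and the last 2, PRPF31 and SNRNP35, are higher with shRBM10#1.

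Of the 7 Sm genes, 2 rose with shRBM10#2, beside 12% of all genes called higher, and the others were not called. SNRPD1 (SmD1) had 64.7 and 63.3 CPM in shScr, 64.7 and 63.5 with shRBM10#1, and 81.2 and 81.9 with shRBM10#2. The rise was present in shRBM10#2 alone, at 127.4% of shScr (log2 FC 0.35, SE 0.0635, FDR = 0.00227). SNRPD3 (SmD3) was above shScr with both shRNAs in CPM, at 189.9 and 197 in shScr, 212 and 223 with shRBM10#1, and 218 and 228 with shRBM10#2. In TPM both overlapped shScr, which had 76.6 and 91.3 (87.2 and 88.7 with shRBM10#1, 90.4 and 94.4 with shRBM10#2). SNRPD3 was called with shRBM10#2 (log2 FC 0.20, SE 0.0636, FDR = 0.0328) and not with shRBM10#1 (FDR = 0.101). SNRPB, the most abundant, varied within shScr from 386 to 473 CPM, a range that held all 4 shRNA libraries. SNRPG and SNRPE have 20 and 9 pseudogenes of their name in GENCODE 29, and reads could be shared with these, which was not tested.

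In the LSM rings, 3 of 8 genes rose with shRBM10#2, beside the same 12% of all genes. LSM8, found in the nuclear ring on U6 and not in the cytoplasmic decay ring, went from 20.5 and 20.7 CPM in shScr to 26.4 and 28.1 (log2 FC 0.40, SE 0.0789, FDR = 0.00339). LSM5 and LSM2 belong to both rings. LSM5 rose from 35.6 and 34.2 to 44.2 and 42.8 CPM (log2 FC 0.32, SE 0.0698, FDR = 0.00621). LSM2 rose from 30.4 and 30.3 to 36.4 and 35.9 CPM (log2 FC 0.25, SE 0.0762, FDR = 0.0283). With shRBM10#1 these 3 genes were not called, with 21.4 and 21.6, 36.6 and 35.6, and 28.9 and 32.2 CPM in turn. LSM3, the ring member with the highest TPM, had 78.5 and 75.95 CPM in shScr, 74.8 and 80.1 with shRBM10#1 and 76.3 and 78.8 with shRBM10#2, all within a narrow band. LSM1, which marks the decay ring, was called with neither shRNA against shScr.

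Outside these complexes, LSM14B, an mRNA-binding relative of LSM14A, fell from 78.3 and 84.9 CPM in shScr to 67.7 and 70.5 with shRBM10#2 (log2 FC −0.24, SE 0.0673, FDR = 0.0208) and was 84.2 and 83.5 CPM with shRBM10#1. LSM14A was 182 and 181 CPM in shScr, 192 and 178 with shRBM10#1, and 177 and 176 with shRBM10#2, without a call. PRPF19, the ubiquitin ligase of the Prp19 complex, had 309 and 327 CPM in shScr, 330.2 and 331 with shRBM10#1, and 313 and 308 with shRBM10#2. None of the 5 later-acting PRPF genes was called with either shRNA. SNRNP25 of U11/U12 had 44.6 and 41.3 CPM in shScr, 43.9 and 49.0 with shRBM10#1, and 37.6 and 36.0 with shRBM10#2, where its FDR was 0.0541.

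Calls with shRBM10#2 differed in how they depended on single libraries. U2AF2, SF3B6, PRPF4 and SNRPD1 were called in all 16 alternative settings, the 6 that leave out a library included. Without shRBM10#2 replicate 2, 5 members were called (beside 6.6% of all genes), and 11 of the 16 lost their call, SNRNP200, SNRNP27, LSM8 and SNRPB2 among them. Without shRBM10#2 replicate 1, 8 members were called (beside 8.44% of all genes), with SNRNP70 and SF3B3 among the 8 lost. Leaving out shScr replicate 2, the library with the shorter fragments, took the call from LSM2, LSM14B, PRPF6, SNRPC and SNRPD3, and leaving out shScr replicate 1 took it from LSM2 and SNRPD3. For shRBM10#1 the calls also depended on which single library was left out. PRPF31 lost its call without shScr replicate 2 or either shRBM10#2 library, and SNRNP35 lost it in 5 of the 6 cases, all but the one without shRBM10#1 replicate 1.

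The hairpins also differed from each other. In shRBM10#2 against shRBM10#1, 22 of 55 members were called (40.0%), 10 higher and 12 lower, beside 25.5% of all genes (11% higher and 14.5% lower), and the count was 5 without shRBM10#2 replicate 1 (beside 7.99% of all genes) and 2 without shRBM10#2 replicate 2 (beside 6.35%). Of the 16 members called with shRBM10#2 against shScr, 14 were called in the same direction here. The comparisons share the shRBM10#2 libraries, so overlap is built in and is no further support. None of the 17 members checked in the alternative settings kept its call between the hairpins in all of them. SNRPC was the member with the largest difference (log2 FC 0.37, SE 0.0733, FDR = 0.00372), followed by U2AF2 (−0.35, SE 0.0678, FDR = 0.00329) and SNRPD1 (0.35, SE 0.0634, FDR = 0.00234). PRPF31 was lower by 0.34 on the log2 scale in shRBM10#2 than in shRBM10#1 (log2 FC −0.34, SE 0.0600, FDR = 0.00191), and SNRNP25 likewise (log2 FC −0.34, SE 0.0784, FDR = 0.00826). Other members called here and not with shRBM10#2 against shScr included LSM1, higher, and SNRPA1, SF3A1, PRPF38A and PRPF38B, lower, with log2 FC between −0.26 and 0.27. None passed an absolute log2 FC of 1.

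With the 4 RBM10 KD libraries as 1 group against shScr, edgeR called 0 of 55 members and DESeq2 called 0, beside 1.62% of all genes called by edgeR. An unadjusted p below 0.05 was found for 7 members (12.7%, beside 17.2% of all genes). The smallest p values belonged to SNRNP200 (log2 FC −0.27, SE 0.0871, FDR = 0.164), SF3B6 (0.37, SE 0.123, FDR = 0.175) and SNRNP27 (0.36, SE 0.131, FDR = 0.210). These genes were picked for their small p in this contrast, so their separation of RBM10 KD from shScr libraries is no further support. The other members with an unadjusted edgeR p below 0.05 were PRPF4, PRPF8, U2AF2 and SNRPD3, and they were not called here. RBM10 itself was not called in this grouping (log2 FC −0.99, SE 0.306, FDR = 0.146), in which the gap between the hairpins adds to the spread. When each condition kept its own coefficient and the shRNAs were averaged, 11 members were called, 5 higher and 6 lower, beside 18.4% of all genes.

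Members that rose and fell with shRBM10#2 differed in base composition. The 9 called higher had a median transcript GC content of 40.5% (range 36.0% to 54.5%), and the 7 called lower had 55.1% (48.5% to 64.6%). The same held for all genes called in this comparison, with medians of 43.1% and 57.4%, so the members were like the rest. Across the 55 members the Spearman correlation of log2 FC with GC content was −0.498 with shRBM10#2 and −0.094 with shRBM10#1, beside −0.36 and 0.119 across all genes with a GC value. These describe genes, which are not independent replicates and share libraries. Median length was 1625 nt for the 9 higher and 3101 nt for the 7 lower members, beside 2835 and 3280 nt for all genes called higher and lower. With an offset for GC content in the fit, 13 members were called with shRBM10#2, 6 higher and 7 lower, beside 18.9% of all genes, and SNRNP70, LSM5, LSM8, LSM14B, SNRPB2 and PRPF6 lost their call. In shRBM10#2 against shRBM10#1 the same offset gave 13 calls in place of 22, 3 higher and 10 lower, beside 13.5% of all genes, and U2AF2, SF3B6 and SNRNP70 were among those lost. With an offset for transcript length instead, 23 members were called with shRBM10#2, 9 higher and 14 lower, beside 30.7% of all genes. Whether base composition contributed to the changes was not tested beyond this fit.

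**Figure D4:**
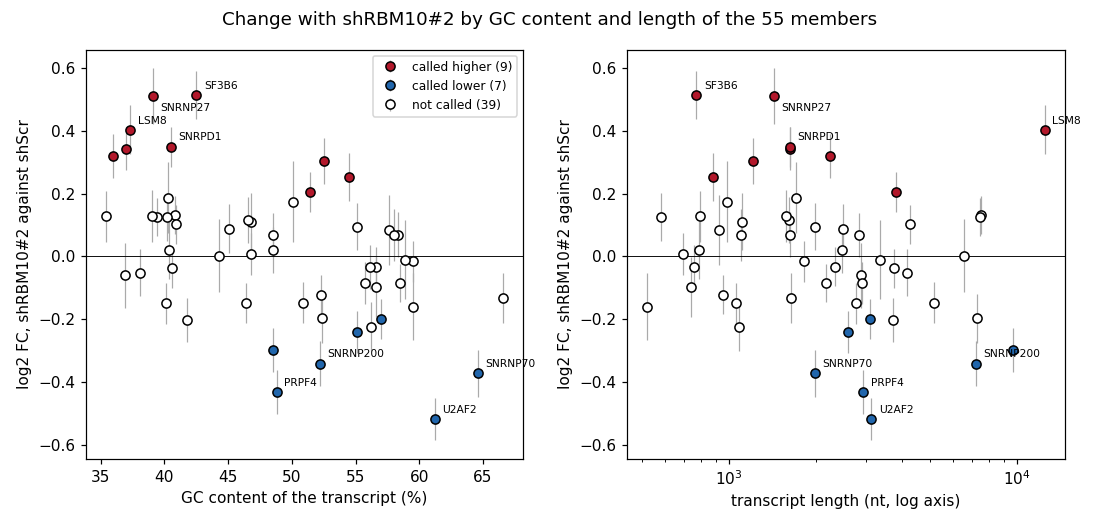
Log2 FC with its standard error in shRBM10#2 against shScr (vertical axis) of the 55 members by transcript GC content (left) and length (right, log axis), coloured by call. Members called higher lie mostly at low GC, around a median of 40.5%, and those called lower around 55.1%.

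Single isoforms of members did not reach the study's criteria. With an FDR below 0.05 and an absolute log2 FC above 1, edgeR called 0 of 81 member isoforms in shRBM10#1 (7 at an unadjusted p below 0.05), shRBM10#2 (28), shRBM10#2 against shRBM10#1 (27) and RBM10 KD as 1 group (10), and DESeq2 called 0 in each. Of all 26464 isoforms, 0.0227%, 0.491%, 0.359% and 0% passed in these comparisons, and 14.5%, 21.5%, 20.3% and 10.9% had an unadjusted p below 0.05, where the members had 8.64%, 34.6%, 33.3% and 12.3%. On FDR alone, no member isoform was called with shRBM10#1 (0.0302% of all), 4 were called with shRBM10#2 (4.94%, beside 2.26% of all) and 2 between the hairpins (2.47%, beside 2.25% of all). Both U2AF2 isoforms fell with shRBM10#2, NM_001012478 by a log2 FC of −0.52 (SE 0.0672, FDR = 0.0409) and NM_007279 by −0.47 (SE 0.0521, FDR = 0.0390), and no change in the share of the segment shown above was called. The other 2 were SNRPD1 NM_006938 (log2 FC 0.37, SE 0.0461, FDR = 0.0394) and SNRNP70 NM_001301069, the form without the 27-nt segment (−0.56, SE 0.0793, FDR = 0.0443). Each of these 4 kept its direction in all 9 alternatives, and each lost its call with the replicate block and when any of several single libraries was left out, at FDR values up to 0.241.

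The isoform shares within members were called in no comparison by edgeR. Of the 20 members with at least 2 isoforms, 0 were called for usage with shRBM10#1, shRBM10#2, between the hairpins or as 1 group, beside 0.172%, 2.75%, 1.92% and 0.515% of the 6405 genes tested. An unadjusted p below 0.05 was found for 0 of the 20, beside 6.17%, 10.4%, 8.68% and 5.43% of those genes. limma's diffSplice called 1 member with shRBM10#2, SF3B1 (FDR = 0.0258), and 1 between the hairpins, SNRPB2 (FDR = 0.0243), and none in the other comparisons. No share of all genes called by limma stands beside these counts, so they are not read as particular to the members.

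In SF3B1 the difference was in a short isoform, NM_001308824, which had 125 and 122 expected counts in shScr, 176 and 176 with shRBM10#1, and 272 and 249.6 with shRBM10#2. Its share of SF3B1 was 2.54% and 2.51% in shScr, 3.42% and 3.09% with shRBM10#1, and 4.56% and 4.01% with shRBM10#2, without overlap between conditions. The main isoform NM_012433 held 94.85% to 97.1%. Tested as a single isoform in edgeR, NM_001308824 was not called (log2 FC 0.88, SE 0.183, FDR = 0.0755 for shRBM10#2), whereas DESeq2 called it there (FDR = 8.99e-04). By edgeR it was not called for shRBM10#1 either (log2 FC 0.46, SE 0.183, FDR = 0.349).

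In SNRPB2, NM_198220 held 51.0% and 45.1% in shScr, 45.4% and 45.7% with shRBM10#1, and 54.7% and 57.0% with shRBM10#2. Here shRBM10#2 lay above every other library. Relative to shRBM10#1 the log2 FC of this isoform was 0.63 (SE 0.112, FDR = 0.0590), which missed the threshold in edgeR and passed it in DESeq2 (FDR = 6.96e-06), and the edgeR usage p of SNRPB2 in that comparison was 0.0965. SNRPB, whose isoforms encode B and B′, kept 35.7% and 35.3% of NM_198216 in shScr, 35.2% and 35.0% with shRBM10#1, and 31.7% and 32.7% with shRBM10#2, with an edgeR usage p of 0.452 for shRBM10#2 against shScr.

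**Figure D5:**
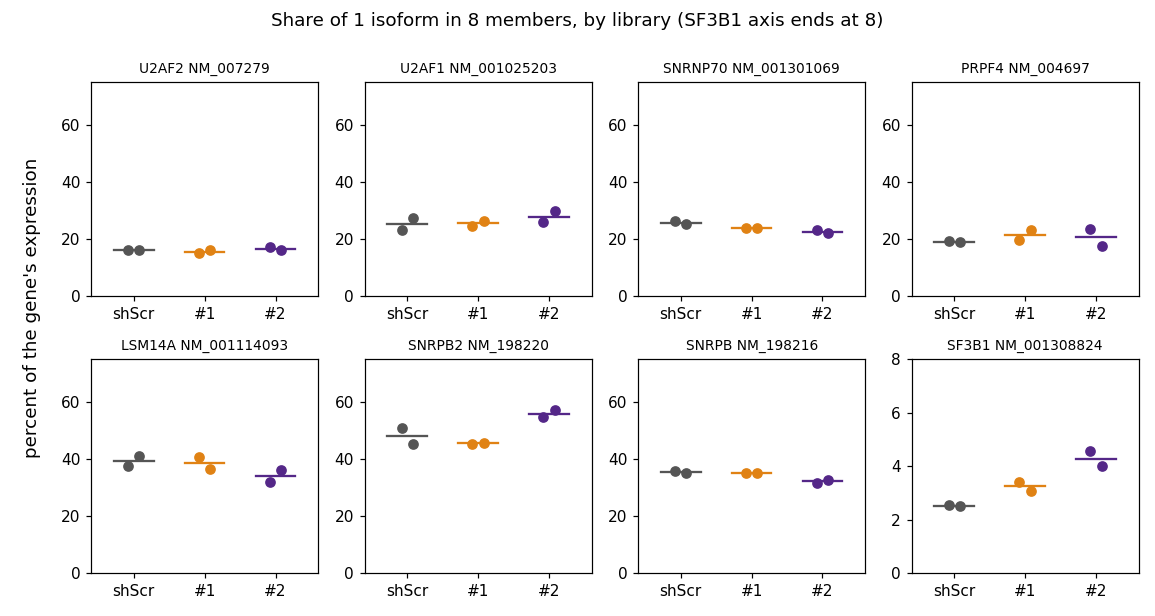
Percent of the gene's expression (vertical axis) held by 1 named isoform in each library (points, line at the mean) for 8 members. U2AF2 stays between 15.2% and 17.3%, SNRPB2 is highest with shRBM10#2, and the SF3B1 panel, on an axis that ends at 8%, goes from 2.5% in shScr to 4% and above with shRBM10#2.

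Other spliceosome proteins were read from a list of 54 genes that are no members, 52 of them tested. With shRBM10#1, 2 were higher and 1 lower, beside 7.13% and 6.91% of all genes: HTATSF1 (log2 FC 0.24, FDR = 0.0225), XAB2 (0.23, FDR = 0.0246) and CDC40 (−0.26, FDR = 0.0420). With shRBM10#2, 4 were higher and 13 lower, beside 12% and 13.9% of all genes, with a median log2 FC of −0.04 beside 0.01 for all genes. The genes with the smallest p were CHERP (log2 FC −0.55, SE 0.0693, FDR = 3.36e-04), the tri-snRNP protein SART1 (−0.48, SE 0.0644, FDR = 5.09e-04) and the helicase DHX16 (−0.45, SE 0.0654, FDR = 7.11e-04). Between the hairpins 4 were higher and 14 lower, beside 11% and 14.5% of all genes, led by CHERP (−0.55), XAB2 (−0.46) and DDX23 (−0.45), and 0 were called with RBM10 KD as 1 group.

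Of 21 genes of snRNP assembly, which load Sm rings onto small nuclear RNAs and carry them to the nucleus, 2 were higher with shRBM10#1 and none lower, beside 7.13% and 6.91% of all genes. They were GEMIN8 (log2 FC 0.46, SE 0.104, FDR = 0.0116) and SMN2, whose reads cannot be separated reliably from its near-identical copy SMN1. With shRBM10#2, GEMIN6 was the only call of the 21 (log2 FC 0.28, SE 0.0931, FDR = 0.0454), beside 12% of all genes called higher and 13.9% lower. The median log2 FC of the list was 0.07 with shRBM10#1 and 0.05 with shRBM10#2.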

How the data were processed

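Total RNA from PC-9 cells of 3 conditions, with 2 libraries each, had been sequenced. Per the submitters' processing notes, STAR 2.4, RSEM 1.2.29, edgeR and hg19 were used. The annotation release and strand setting are not given in the sources used here. The authors deposited, per RefSeq isoform and library, an RSEM expected count (reads shared by isoforms are split, so it need not be whole). They also deposited TPM (scaled by effective length and to a common total) and the percent of its gene's expression held by each isoform.

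Expected counts were rounded, summed per gene symbol, scaled by TMM and filtered with filterByExpr, then tested by quasi-likelihood in edgeR 4.0.16 (R 4.3.3), with 1 coefficient per condition and Benjamini-Hochberg adjustment over all 14217 genes tested. Isoforms were tested likewise, and isoform usage with diffSpliceDGE. All tests were two-sided. DESeq2 1.42.0 and limma 3.58.1 served as alternatives, beside other filters, the 2 compared conditions only, the replicate block, a loess offset (span 0.3) for length, and each library left out in turn. An offset for GC content was added after the data were seen. GC content was available for all 55 members and 96.6% of tested genes. The procedures were tested on simulated counts. The changes put into genes and isoforms there were larger than any found in the members, so detection of changes as small as theirs was not tested. Figures used matplotlib 3.10.9 in Python 3.11.15. Isoform segments come from GENCODE 29 (GRCh38).

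The members and lists were chosen with earlier results of these data known. Genes were named by a fixed rule. It takes RBM10, SF3B1, U2AF1 and U2AF2, the member with the highest TPM of each role, every member called with either shRNA, and the 3 that differ most between hairpins. It adds the 3 members with the smallest p where a comparison called none, and the 3 listed non-members with the smallest p among those called. PRPF8, TFPT, RILPL1 and members listed by name alone were added after their values were seen. A gene is counted among the members but not reported by name here. Depth is 31953729 to 37557507 expected counts per library. Sampling noise was exceeded between the libraries of every condition (chi-square per degree of freedom 3.16 to 11.9), so none was counted as a duplicate.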

Additional observations from a re-analysis of the deposited data

How the results depend on the processing

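No called log2 FC of a named member changed direction under any alternative run. SF3B1 with shRBM10#2, not called, was −0.0159 with the GC offset and −0.0149 with the GC offset and the replicate block. For shRBM10#1 the count of 2 members became 1 with DESeq2, 5 without a filter on low counts, 4 with the length offset, 0 with an absolute log2 FC above 1, 0 with the 2 compared conditions only, 1 with the GC offset and the replicate block, and 0 to 8 with a library left out. For shRBM10#2 the 16 became 0 above an absolute log2 FC of 1 and 5 to 19 with a library left out. Between the hairpins the 22 became 0 above that size, 13 with the GC offset, 7 with the GC offset and the replicate block, and 2 to 23 with a library left out. The pooled count of 0 became 11 with 1 coefficient per condition. For isoform usage limma's diffSplice gave 1 with shRBM10#2 and 1 between the hairpins. Isoforms on FDR alone gave 4 and 2. The share of all genes called moved with the setting too, for shRBM10#1 from 14% in the main fit to 12.1% with DESeq2. Changes in these counts are therefore not read as particular to the members. Leaving out a library leaves its condition with 1 sample, assumed to vary like the others, and with fewer samples in the fit. Other causes were not tested.

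Conditions share replicate numbers, but same-numbered libraries did not deviate together (correlations −0.00383, −0.0193 and −0.0136). Blocking on that number gave member counts of 2, 14, 18 and 0 in the same order of comparisons (shRBM10#1, shRBM10#2, between the hairpins, pooled). No share of all genes stands beside these counts, so their changes are not read as particular to the members.

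Reads shared with pseudogene copies (13 members have copies named after them) or with opposite-strand exons (20 members) could affect single totals, which was not tested.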
